A study of Capra hircus with 20 samples.

Results

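In the hypothalamus of newborn goats, 25 genes had FPKM values that separated the 5 libraries of 1-day-old animals from all 15 libraries of older animals. For 22 of them the lowest D1 library was above the highest later library, and for 3 the highest D1 library was below the lowest later library. These 25 were found among all 21071 genes of the expression table, by comparing the D1 columns with the columns of the later stages taken as one group. The separation itself is therefore the rule that chose the genes, and it is described here without a test. The samples were hypothalamic tissue from female Jining grey goats at 1 day (D1), 60 day (M2), 120 day (M4) and 180 day (M6), with 5 goats per stage and 1 strand-specific, rRNA-depleted RNA library per goat. No animal was treated and no genotype was varied, so age was the only labelled difference between the groups. All goats were kept under the same feeding management and slaughtered on the same day, so they also differed in their date of birth. FPKM, the unit of all levels below, divides the fragments of a gene by its length and by the depth of the library.

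The hypothalamus links the nervous system to the pituitary, and its neurons are mostly formed before birth. After birth the tissue still gains glial cells, synapses and myelin, and brain cells make their own cholesterol for these membranes. Newborn blood carries immature red cells, and any blood left in a dissected tissue adds its RNA to the library. Growing cells need polyamines, ribosomes and mitochondria, and several of the genes below belong to those systems. In bulk tissue, fewer cells of a type and less RNA per cell cannot be told apart.

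The libraries were not alike in other respects. The number of genes with a value above 0 was 17424 ± 141 (SD, n = 5) at D1 and 16610 ± 421 (SD, n = 15) later, which differed in a two-sided exact permutation test (p = 0.000451). In the study's read summary nearly all later libraries also had a lower mapping rate than every D1 library, so age and mapping rate cannot be fully told apart. D1 replicate 4 stood apart from the other D1 libraries. Its log2 values had a median correlation of 0.907 across genes with the other D1 libraries, while the other 4 had medians between 0.941 and 0.952. The 24 measured genes of mature myelin summed to 1193 FPKM in D1 replicate 4, against 13065 to 17503 FPKM in the other D1 libraries and 575 to 18163 FPKM later. The 17 markers of cortex, striatum and thalamus summed to 702 FPKM there, against 39.8 to 177 FPKM in the other D1 libraries and 31.2 to 354 FPKM later. Of the 23 measured hypothalamic peptide genes, 20 reached 0.1 FPKM or more in 5 or more libraries. The 23 summed to 1014 FPKM in D1 replicate 4. Their sum was between 33.0 and 694 FPKM in the other D1 libraries and between 29.2 and 1069 FPKM later. Their spread within a stage and the brain region markers differ between the libraries, and the part of dissection in the results was not tested.

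The 22 genes with D1 above all later libraries were 0.104% of all genes, and the 3 with D1 below were 0.0142%. In the limma fit of D1 against the pooled later stages, 6 of 16771 tested genes (0.0358%) were called lower at the later stages by an adjusted p under 0.05 and a log2 fold change beyond 1. No gene (0%) was called higher at the later stages by limma, although 755 higher and 1124 lower genes had an unadjusted p under 0.05 (11.2% in all). By estimate 56.9% of the tested genes were lower later. An adjusted p under 0.05 without the fold limit was reached by 7 genes (0.0417%). Of the 25 separated genes, 24 passed the filter on low values and entered this fit, and ALAS2 was the only one called. SRM passed the adjusted p but not the fold limit. With the mapping rate as a covariate 0 genes were called in either direction, and without D1 replicate 4 there were 3 calls higher and 35 lower. The median log2 fold change was -0.68 over the 21 tested genes with D1 above and 0.91 over the 3 with D1 below, while the median of all tested genes was -0.07. The rule used the same contrast, so nothing is read from these medians or from the adjusted p values given below. A positive log2 fold change means a higher value at the later stages, and each is given with its standard error on the log2(FPKM + 0.1) scale, which understates the change of genes near 0.

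The widest separations were in genes with low or uneven FPKM, ALAS2 of red cells and LOC102176710, which merely lies near a beta-globin gene. ALAS2 on the X chromosome (chrX:25494562-25521331, ARS1.2) encodes the enzyme that starts heme synthesis in developing red cells. Its FPKM in D1 replicates 1 to 5 was 0.94, 2.75, 1.4, 0.548 and 0.381. It was 0 in 9 later libraries, and the highest of the other 6 was M2 replicate 3 with 0.242 FPKM. All D1 goats were thus above all later goats, and the values were low throughout. The log2 fold change of ALAS2 was -3.01 ± 0.41 with an adjusted p of 0.00361 (limma), and with the mapping rate as a covariate it was -3.00 with an adjusted p of 0.162. LOC102176710 (chr15:34026334-34027911), a protein-coding gene without a name in the annotation used, was listed at 0 in all 15 later libraries, and its D1 values were 10.2, 5.81, 58, 0.0535 and 0.573 FPKM. The D1 goats differed widely from each other, and with 4 libraries at 0.1 FPKM or more the gene did not pass the filter and was not tested. It lies 90371 bp before HBBC, a beta-globin gene (chr15:34118282-34119849), on chromosome 15.

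Of the 7 genes in the table from LOC102176710 to HBBC on the annotation, 3 had a value above 0 in some library and 4 were listed at 0 in all. HBBC had D1 values of 1.4, 129, 25.9, 46.5 and 59.1 FPKM and later values between 0 and 41.3 with a median of 1.08. D1 replicates 1 and 3 lay within the later range, whose highest library was M2 replicate 3, the same as for ALAS2. HBBC was thus not separated (log2 fold change -4.16 ± 1.12, adjusted p = 0.158 in limma). LOC102175876 between them had D1 values of 27.4, 15.4, 73, 0.893 and 0.95 FPKM and later values between 0 and 31.2 with a median of 1.99. Of these only D1 replicate 3 was above every later library. Genes of the beta-globin region resemble each other, so the division of reads among them is uncertain. Of 11 measured genes of the red blood cell list, 7 were tested, 5 of them lower and 2 higher later by estimate. Their log2 fold changes ranged from -4.16 to 1.37 with a median of -0.40. An unadjusted p under 0.05 (limma) was reached by 2 of the lower and 1 of the higher genes, and 1 was called (ALAS2). The summed FPKM of the 11 was between 5.61 and 136 at D1 and between 3.71 and 49.2 later, and the marker genes HBM and TSPO2 were listed at 0 in all 20 libraries. SLC4A1, the band 3 anion exchanger of red cells, had a median of 0 FPKM in both groups. The part of blood left in the tissue was not tested.

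S100A8 (chr3:103093868-103095109) encodes a subunit of calprotectin, a calcium-binding protein abundant in neutrophils. Its D1 values were 3.32, 3.38, 1.2, 1.03 and 2.54 FPKM and its later values between 0 and 0.93 with a median of 0.382. D1 replicates 3 and 4 were just above M4 replicate 2, the highest later library, and 3 of the M4 libraries were at 0. The log2 fold change of S100A8 was -2.47 ± 0.53, with an adjusted p of 0.0711 (limma). The adjusted p was 0.0497 without D1 replicate 4 and between 0.163 and 0.25 without any one of the other D1 libraries. S100A9, which encodes the other subunit, had medians of 0.722 FPKM at D1 and 0 later, with a log2 fold change of -1.68 ± 0.97 and overlapping groups. MLF1 (chr1:108466500-108497214), named for myeloid leukemia, was far more abundant, at 54.1, 49.4, 70.8, 76.9 and 52.7 FPKM at D1 and between 18.5 and 45.7 with a median of 36.2 later. The lowest D1 goat was replicate 2, and M6 replicate 4 came closest from below.

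SRM (chr16:41062640-41066649) encodes spermidine synthase, which makes spermidine from putrescine. In the 5 D1 goats it had 14.5, 15.3, 17.5, 12.1 and 12.6 FPKM, and the later goats were between 5.07 and 9.43 with a median of 7.56. The lowest D1 goat, replicate 4, was 1.28 times the highest later goat, M2 replicate 3, and the D1 median was about 1.92 times the later median. The log2 fold change of SRM was -0.96 ± 0.16 (adjusted p = 0.016, limma). The adjusted p of SRM rose to 0.101, 0.0889 and 0.158 without D1 replicates 1, 2 and 3. Its log2 fold change was then -0.95, -0.93 and -0.88, and an adjusted p also depends on the other genes and the number of libraries. The adjusted p was 0.0757 after quantile normalization and 0.367 with the mapping rate as a covariate. CDKN2C (chr3:25479545-25485500) encodes p18-INK4c, an inhibitor of the cyclin-dependent kinases CDK4 and CDK6. Its D1 values of 2.09, 2.41, 2.75, 2.27 and 2.23 FPKM lay close together, and its later values were between 0.581 and 1.74 with a median of 1.14 (log2 fold change -0.97 ± 0.26). The later libraries of CDKN2C spread over a wider range than the D1 libraries did, with M4 replicate 5 the highest.

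NOP16 (chr7:72753334-72758119) encodes a nucleolar protein needed to assemble the large ribosomal subunit. It had 31.2, 35, 48.9, 29.8 and 42.1 FPKM at D1, the later goats were between 11.8 and 29.7 with a median of 20.9, and D1 replicate 4 was only 1.002 times M2 replicate 5. OGFOD1 (chr18:25529548-25562473), a hydroxylase of a ribosomal protein, had D1 values of 30.9, 32, 28.4, 24.2 and 27.9 FPKM and later values between 12.6 and 22.6 with a median of 18.3. D1 replicate 4 was again the lowest of its group. DRG1 (chr17:1143584-1157791), a GTP-binding protein of the translation machinery, had D1 values of 22.6, 22.6, 25.8, 24.4 and 23.6 FPKM and later values between 7.74 and 21.6 with a median of 18.2. The M6 goats were nearest to D1 as a group, at 18.8 ± 1.36 FPKM (mean ± SD, n = 5) against 23.8 ± 1.34 at D1. SNRPC (chr23:39916310-39927189), a protein of the U1 particle that recognises splice sites, had D1 values of 28.5, 27.2, 27.2, 35.4 and 31.3 FPKM and later values between 10.8 and 24.3 with a median of 18.7. The log2 fold changes of these genes were -0.95 ± 0.20 for NOP16, -0.67 ± 0.15 for OGFOD1, -0.53 ± 0.20 for DRG1 and -0.73 ± 0.16 for SNRPC.

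Mitochondrial proteins were encoded by at least 3 of the separated genes. TIMM44 (chr7:93735226-93748218) encodes the part of the TIM23 import machinery that holds the import motor at the inner membrane. Its D1 values were 19, 19.2, 25.4, 25.4 and 21.8 FPKM and its later values between 5.48 and 16.3 with a median of 13.9 (log2 fold change -0.82 ± 0.19). M4 replicate 3 was the lowest later goat and lay well under the next, M4 replicate 4. ATP5G1 (chr19:37264137-37266910) is one of several genes for subunit c, which forms the rotating ring of ATP synthase, and reads shared with their near-identical copies make its level less certain. The D1 goats had 34.3, 32.1, 45.7, 47.4 and 33 FPKM and the later goats were between 7.47 and 30 with a median of 24.2 (log2 fold change -0.76 ± 0.23), with M2 replicate 1 far below the rest. With the mapping rate as a covariate its log2 fold change was -0.29. SUOX (chr5:56689631-56694246) encodes sulfite oxidase of the intermembrane space, at 5.72, 6.59, 6.18, 6.33 and 6.48 FPKM at D1 and between 2.28 and 5.66 with a median of 4.92 later. The gap between the groups was narrow for SUOX, since D1 replicate 1 was 1.01 times M4 replicate 5.

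**Figure D1:**
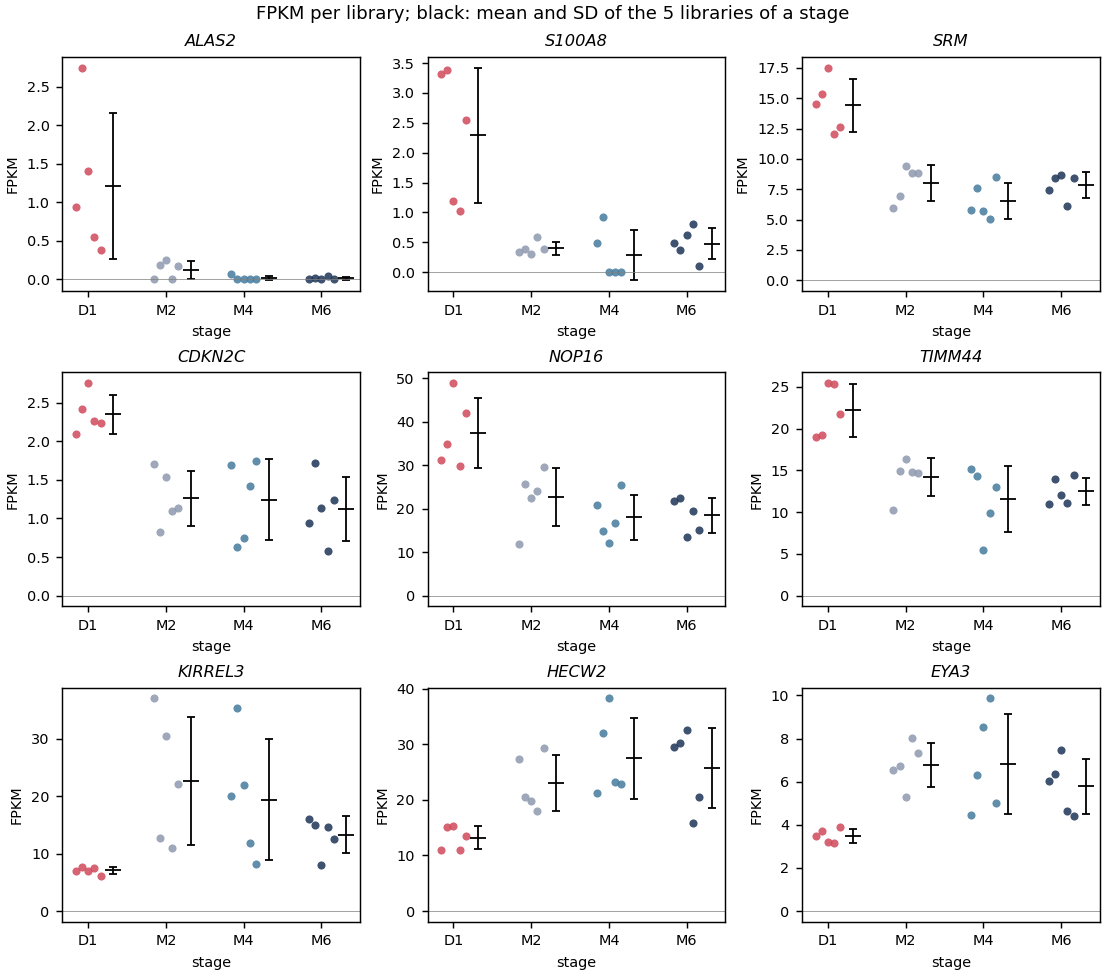
FPKM per library (vertical axis) by stage (horizontal axis) for 9 of the separated genes, with the mean and SD of the 5 libraries of a stage in black. D1 stands above the later stages for ALAS2, S100A8, SRM, CDKN2C, NOP16 and TIMM44 and below them for KIRREL3, HECW2 and EYA3, and M2, M4 and M6 overlap each other in each panel.

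GALNT1 (chr24:21684612-21763072) encodes an enzyme that starts mucin-type O-glycosylation in the Golgi, and it had the highest D1 median of the 22 genes at 71.7 FPKM. In replicate order the D1 goats had 70, 81.4, 71.7, 74.9 and 71.5 FPKM while the later goats were between 33.4 and 68 with a median of 52.4, so D1 replicate 1 was only 1.03 times M4 replicate 5. SNX2 (chr7:79595004-79656527), a sorting nexin that returns cargo from endosomes with the retromer, had D1 values of 37.2, 34.1, 33.3, 42.1 and 37 FPKM and later values between 14.1 and 32.8 with a median of 25.5. RAB4B (chr18:50930173-50939373), a small GTPase of endosome recycling, had D1 values of 45.9, 47, 58.8, 48.9 and 50.2 FPKM and later values between 20.9 and 43 with a median of 35.1. TRAM1L1 (chr6:8657392-8659571), a relative of the TRAM1 protein of the endoplasmic reticulum translocon, had D1 values of 16.2, 14.6, 22.5, 15.7 and 14.9 FPKM and later values between 6.08 and 13.1 with a median of 11.1. D1 replicate 3 was highest for RAB4B and TRAM1L1 but lowest for SNX2, so the order of the D1 goats differed between genes. The log2 fold changes were -0.54 ± 0.15 for GALNT1, -0.64 ± 0.17 for SNX2, -0.60 ± 0.16 for RAB4B and -0.63 ± 0.17 for TRAM1L1.

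Of the remaining 5 genes with D1 above, DPP3 and BLMH encode cytosolic peptidases. DPP3 (chr29:44916291-44947946) had D1 values of 11.4, 9.61, 9.72, 8.28 and 8.99 FPKM and later values between 1.83 and 7.61 with a median of 6.15 (log2 fold change -0.80 ± 0.25). BLMH (chr19:21150658-21192317) had D1 values of 21.2, 18.3, 22.9, 18.7 and 19.7 FPKM and later values between 8.75 and 16.5 with a median of 12.9 (log2 fold change -0.66 ± 0.14). In both genes M2 replicate 1 was the lowest later goat. C4H7orf73 (chr4:20920936-20936771) had D1 values of 58.5, 51, 56.7, 49.6 and 53.4 FPKM and later values between 22.1 and 47.6 with a median of 34.9 (log2 fold change -0.62 ± 0.15). TMEM68 (chr14:59008796-59043001), which encodes a transmembrane protein, had D1 values of 26.6, 27, 30.9, 25.3 and 27 FPKM and later values between 8.16 and 24.5 with a median of 18.6 (log2 fold change -0.68 ± 0.20). TBL2 (chr25:33442769-33450214), a WD-repeat protein of the endoplasmic reticulum, had D1 values of 12.3, 10.9, 11.7, 11.8 and 10.3 FPKM and later values between 6.37 and 9.95 with a median of 9.43. The change of TBL2 was the smallest of the 24 tested genes, with a log2 fold change of -0.35 ± 0.12 and an adjusted p of 0.297 (limma), and both of its groups were narrow.

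The 3 genes with D1 below all later libraries were KIRREL3, HECW2 and EYA3. KIRREL3 (chr29:29090270-29703697) encodes an adhesion protein of the immunoglobulin superfamily found at synapses. Its D1 values were 6.97, 7.77, 7.05, 7.43 and 6.16 FPKM and its later values between 8.02 and 37 with a median of 15. The D1 goats lay within a narrow range, whereas the later goats ranged widely, from M6 replicate 3 at the bottom to M2 replicate 1 at the top. D1 goats averaged 7.08 ± 0.602 FPKM (SD, n = 5), M2 goats 22.7 ± 11.2, M4 goats 19.4 ± 10.5 and M6 goats 13.3 ± 3.21. The log2 fold change of KIRREL3 was 1.22 ± 0.30 (adjusted p = 0.112, limma).

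HECW2 (chr2:50797310-51249295) encodes a ubiquitin ligase of the NEDD4 family. At D1 it had 11.1, 15.2, 15.2, 11.1 and 13.5 FPKM, and the later goats were between 15.9 and 38.2 with a median of 23.2 (log2 fold change 0.91 ± 0.18, adjusted p = 0.0628, limma). D1 replicate 3 and M6 replicate 4 were the nearest pair across the gap, and their values differed by 1.04 times. EYA3 (chr2:10579419-10674892) encodes a phosphatase that also acts as a co-activator of transcription, known in sheep for its response to day length in the pars tuberalis beside the hypothalamus. At D1 its values were 3.46, 3.7, 3.18, 3.16 and 3.91 FPKM, and the later goats were between 4.4 and 9.86 with a median of 6.37 (log2 fold change 0.84 ± 0.18, adjusted p = 0.0711, limma). The 5 D1 goats were all born near the day of slaughter and the later goats at other dates, so age and season of birth cannot be told apart here. HECW2 and EYA3 are both on chromosome 2 and are not neighbours.

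The families and complexes to which these genes belong were listed in full after the 25 genes were known, and their counts are given beside all tested genes, with a median of -0.07, 56.9% lower later and 11.2% with an unadjusted p under 0.05. For ATP synthase, 14 of 15 tested subunit genes were lower at the later stages, 12 of them with an unadjusted p under 0.05 and 0 with an adjusted p under 0.05 (limma). The median of the 14 other than ATP5G1 was -0.53, ATP5I had a positive estimate at 0.47 ± 1.23, and ATP5F1 had the lowest log2 fold change at -0.78 ± 0.25. The subunit c genes ATP5G2 and ATP5G3 had log2 fold changes of -0.11 ± 0.18 and -0.51 ± 0.21. All 10 tested genes of TIM23 import were lower later, with a median of -0.41 over the 9 other than TIMM44, and 4 had an unadjusted p under 0.05 including TIMM17A at -0.92 ± 0.20. For the U1 and Sm proteins 9 of 11 were lower later, with a median of -0.34 over the 10 other than SNRPC. MLF2, the only relative of MLF1, had a log2 fold change of -0.66 ± 0.23, and its unadjusted p was under 0.05.

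The retromer and sorting nexins also leaned lower, with 6 of the 7 other than SNX2 lower later and a median of -0.30. VPS29 of the retromer was the lowest of them at -0.62 ± 0.22, and SNX1, the partner of SNX2, was the one with a positive estimate at 0.12 ± 0.27. Of the 5 CDK inhibitors other than CDKN2C 4 were lower, with a median of -0.31, and CDKN1C had -0.95 ± 0.46. All 3 genes listed with DRG1 were lower, with a median of -0.23, among them its paralog DRG2 at -0.18 ± 0.14. Of the 11 polyamine genes other than SRM 9 were lower and the median log2 fold change was -0.20, and ODC1, the first enzyme of the pathway, had -0.28 ± 0.28. Spermine synthase (SMS), which acts after SRM, had -0.05 ± 0.21. Of the 8 heme synthesis genes other than ALAS2 7 were lower, with a median of -0.24, and ALAS1, which starts heme synthesis outside red cells, had -0.44 ± 0.16 with an adjusted p of 0.309. Of the 11 other tested S100A genes 9 were lower, with a median of -0.19.

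Other families had a median closer to -0.07 or relatives of both signs. Of 18 further genes of nucleolar ribosome assembly 14 were lower and the median was -0.18, and RRP8 went the other way at 0.53 ± 0.17. Of the 13 other tested GALNT genes 8 were lower, with a median of -0.09, and GALNT18 had 1.37 ± 0.27 (adjusted p = 0.0628). RAB4A had 0.22 ± 0.21 against -0.60 for RAB4B. The relatives of TRAM1L1 went opposite ways, with -0.42 ± 0.28 for TRAM1 and 1.40 ± 0.59 for TRAM2.

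The relatives of the 3 genes with D1 below gave mixed signs. KIRREL, KIRREL2 and NPHS1 (nephrin) had log2 fold changes of -0.29 ± 0.33, -0.40 ± 0.55 and -0.43 ± 0.29, all at the level of about 1 FPKM, whereas KIRREL3 was positive. All 4 EYA genes were higher later by estimate, with 0.81 ± 0.74 for EYA1, 0.76 ± 0.34 for EYA2 and 0.22 ± 0.47 for EYA4, of which EYA2 had an unadjusted p under 0.05. Among the 8 other NEDD4-type ligases the median was -0.02, NEDD4 had 0.62 ± 0.28 and HECW1, the closest relative of HECW2, had -0.02 ± 0.54. None of these relatives had an adjusted p under 0.05 in the limma fit, and 0 of them were separated.

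**Figure D2:**
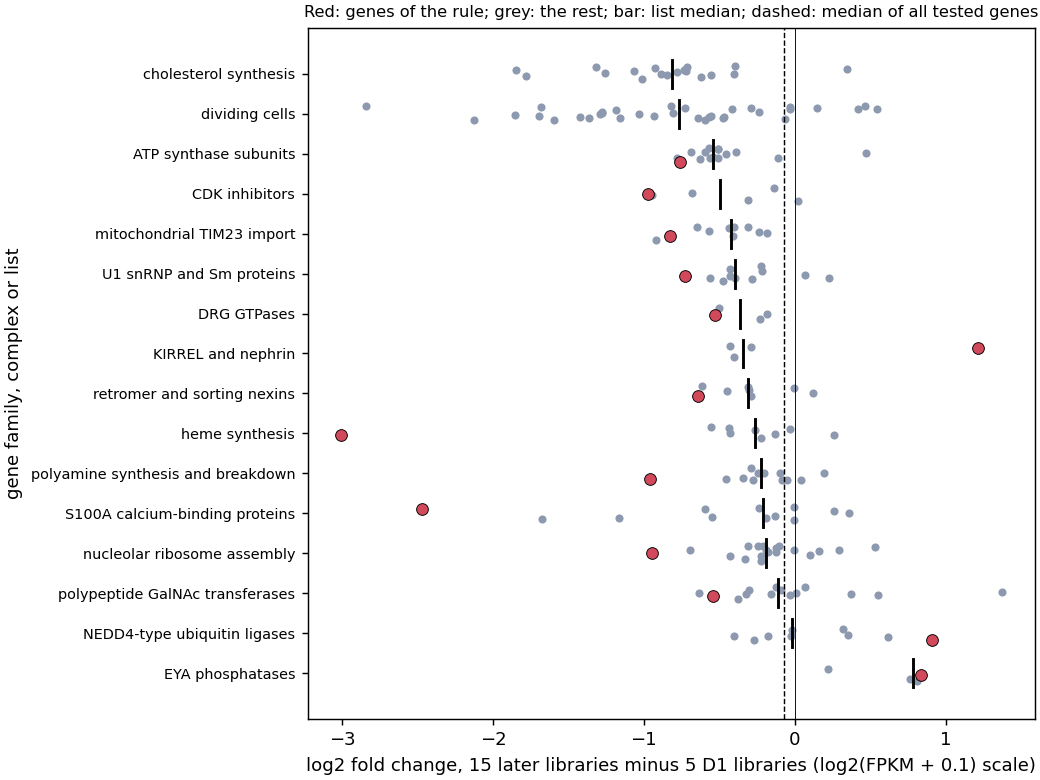
Each point is a gene of the family or list named at the left, at its log2 fold change between the 15 later and 5 D1 libraries, with the separated genes in red, a bar at the median of the list and a dashed line at the median of all tested genes. Of the 15 subunits of ATP synthase, 14 lie to the left of 0 around a list median of -0.54 and ATP5I lies at 0.47, while ALAS2, S100A8, SRM and KIRREL3 lie apart from most of their relatives.

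M2, M4 and M6 were also compared with each other. In the fit with 4 stages as groups, 0 genes of the 16771 tested (0%) were called between any pair of M2, M4 and M6, and 0 of the 24 tested genes had an unadjusted p under 0.05 in any of these 3 contrasts. Over all tested genes that share was 8.68% for M4 against M2, 6.87% for M6 against M4 and 6.14% for M6 against M2. The rule also held the later libraries to one side of D1, which favours genes with a small later spread, so nothing is read from the 0 of the 24. In the same fit 9 genes were called for M4 against D1 and 1 for M6 against D1. M2 against D1 had 0 calls, as the pairs of later stages did. The shares with an unadjusted p under 0.05 were 15.6% for M2, 8.71% for M4 and 7.41% for M6 against D1. For the 21 genes with D1 above, the log2 fold change ranged from -1.11 to 0.40 in M4 vs. M2 and from -0.79 to 0.34 in M6 vs. M2, with medians of 0.07 and 0.16. From M4 to M6 it ranged from -0.17 to 1.19, where S100A8, with 3 M4 libraries at 0, was the highest. For the 3 genes with D1 below, the M6 vs. M2 change was between -0.65 (KIRREL3) and 0.14 (HECW2). Against D1 taken alone, the median log2 fold change of the 21 genes was -0.76 for M2, -0.69 for M4 and -0.61 for M6. The rule fixed the direction of each of these, and they share the D1 libraries. The p values do not show that the later stages were equal, since changes of this size lay within the spread of the 5 goats per stage.

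The edge of the rule was crowded. In 13 of the 22 genes with D1 above and 2 of the 3 with D1 below, the nearest values of the groups differed by less than 10%. Among genes whose higher group had a median of 1 FPKM or more, NOP16 and SUOX were just inside, their lowest D1 value being 1.002 and 1.01 times the highest later value. Just outside were CDC42 and MTDH, at 0.9997 and 0.9989 times. CDC42, a small GTPase of the actin cytoskeleton, had D1 values of 128, 110.1, 126, 95.2 and 106 FPKM and later values between 52.7 and 95.2 with a median of 73.4, with D1 replicate 4 and M4 replicate 1 nearly equal. For D1 below, KIRREL3 and HECW2 were just inside at 1.03 and 1.04 times, and GIGYF2 and SOBP just outside at 0.983 and 0.959 times. These 4 ratios set the lowest later value against the highest D1 value.

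The other 5 genes that limma called lower at the later stages overlapped between the groups, so they were no part of the 25. HMGCS1 and MVD are enzymes of cholesterol synthesis, and IDH1 is a cytosolic source of NADPH. HMGCS1 had D1 values of 727, 766, 1140.2, 220.2 and 703 FPKM and later values between 98.5 and 324 with a median of 186 (log2 fold change -1.85 ± 0.29, adjusted p = 0.016). MVD had D1 values of 27.8, 35.1, 49, 9.38 and 33 FPKM and later values between 3.95 and 15.4 with a median of 7.8 (log2 fold change -1.78 ± 0.30), and IDH1 had D1 values of 213, 227, 246, 41.5 and 101 FPKM and later values between 24.2 and 75.4 with a median of 37.5. In all 3 the low D1 goat was replicate 4, and the other 4 D1 goats were above every later goat. CD209, a lectin of macrophages and dendritic cells, had D1 values of 0.302, 0.442, 0.0852, 0.305 and 0.448 FPKM and was at 0 in 13 later libraries. LOC102176025 had D1 values of 28.7, 41.7, 46.6, 25.1 and 39.9 FPKM and later values between 7.84 and 25.4 with a median of 13.4, with D1 replicate 4 just under M4 replicate 1.

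**Figure D3:**
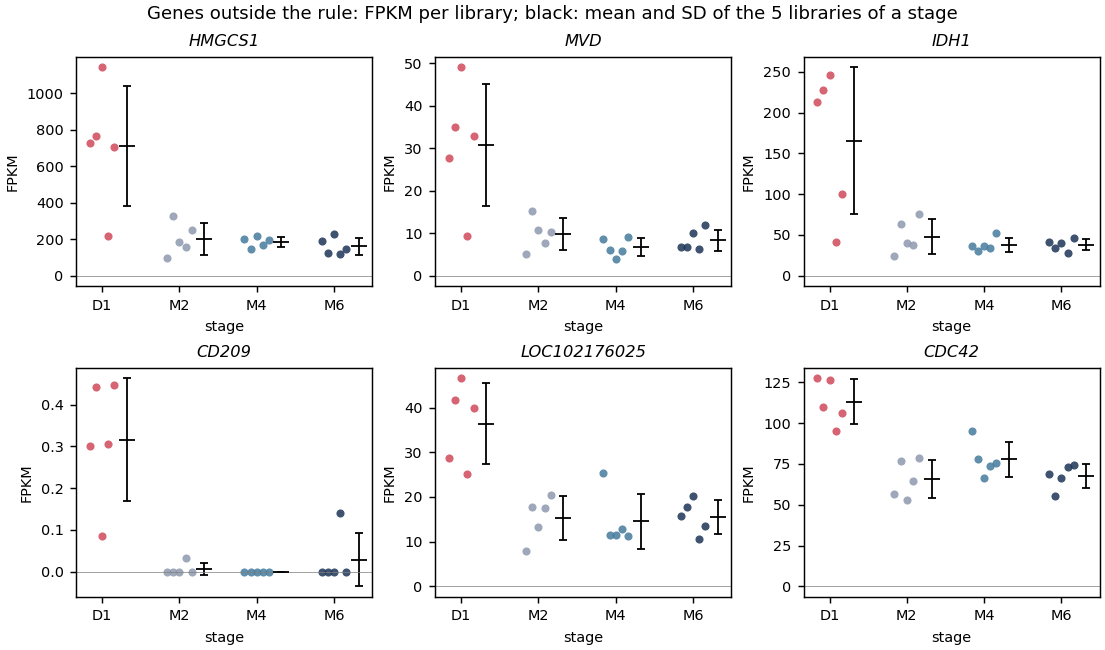
FPKM per library by stage for the 5 genes called by limma whose groups overlapped and for CDC42, with the mean and SD of the 5 libraries of a stage in black. In the panels of HMGCS1, MVD and IDH1 a single D1 point lies within the range of the later stages.

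The number of separated genes depended on single libraries. Leaving out a library can only add genes, and every one of the 25 stayed separated whichever of the 20 was left out. Without D1 replicate 4 there were 101 genes with D1 above and 12 with D1 below, and without D1 replicate 2 there were 48 and 27. Without D1 replicate 1 there were 39 and 7, without D1 replicate 5 there were 42 and 7, and without M4 replicate 1 there were 45 and 16. Without D1 replicate 4, 9 of the 18 listed genes of cholesterol synthesis were separated with D1 above, namely HMGCS1, MVK, MVD, FDPS, SQLE, MSMO1, NSDHL, EBP and INSIG1, and so were CNP, CLDN11 and UGT8 of the 24 myelin genes. Over all 21071 genes that count was 101. D1 replicate 4 had the lowest sum of the D1 libraries in both lists, so leaving it out favours these genes and nothing is read from their counts. The cholesterol synthesis genes summed to 589 FPKM in D1 replicate 4, to between 1748 and 2639 FPKM in the other D1 goats and to between 362 and 1109 FPKM later. With all libraries 0 of these genes were separated, and their median log2 fold change was -0.81 over 18 tested genes, 13 of which had an unadjusted p under 0.05, all lower. These genes and the myelin genes were low together in D1 replicate 4, and the part of myelin content in that was not tested.

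**Figure D4:**
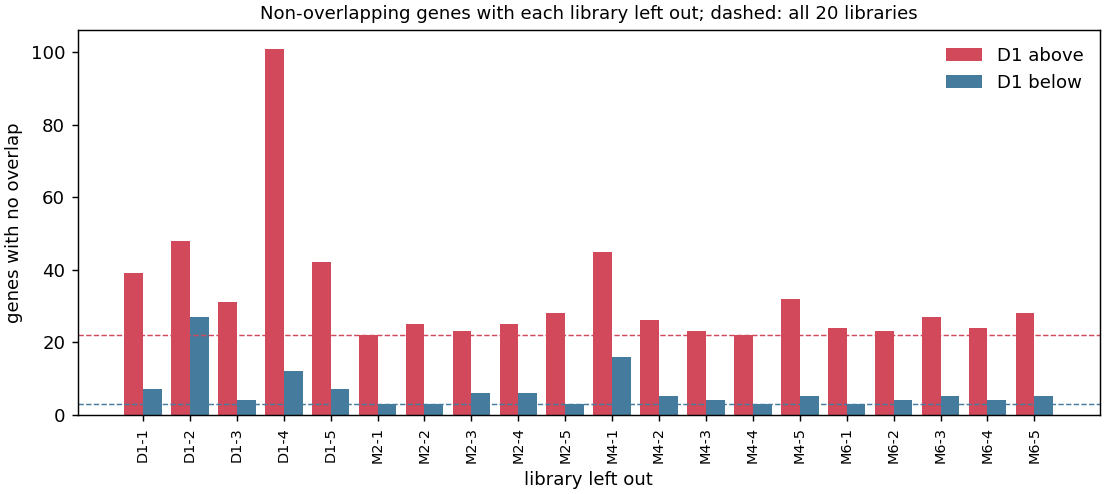
Number of genes (vertical axis) whose D1 libraries lie above (red) or below (blue) all later libraries when the library on the horizontal axis is left out, with dashed lines at the 22 and 3 genes of all 20 libraries. The bar for D1-4 reaches 101 and those for D1-2 and M4-1 reach 48 and 45.

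Scaling of the libraries mattered as well. After median-ratio scaling 11 of the 22 genes with D1 above remained separated, and after quantile normalization 9 did. ALAS2, LOC102176710, S100A8, SRM, BLMH, MLF1, SNRPC and TRAM1L1 remained under both. NOP16, TIMM44, DPP3, GALNT1, OGFOD1, RAB4B, SNX2, SUOX, TBL2 and TMEM68 overlapped under both. ATP5G1, C4H7orf73 and CDKN2C were separated after median-ratio scaling only, and DRG1 after quantile normalization only. Of the genes with D1 below, KIRREL3 remained under both, EYA3 after median-ratio scaling only, and HECW2 under neither. SOBP and ZMYM6 became separated with D1 below under both. The log2 fold change kept its direction under each of these 2 scalings for all 24 tested genes. With the mapping rate as a covariate the log2 fold change shrank by over 1.5 times for 4 of the 24. It came to -0.29 for ATP5G1, -0.12 for DRG1, -0.20 for SUOX and -0.39 for TRAM1L1. The estimate with this covariate was a median of 0.75 times the main one over the 24, so shrinkage was not limited to these 4. With the replicate block added, 9 of the 24 shrank by over 1.5 times.

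Dividing cells were another list with a low median. The 34 genes of this list had a median log2 fold change of -0.77, with 30 lower by estimate, 16 of them at an unadjusted p under 0.05, 0 at an adjusted p under 0.05 and 0 separated. TOP2A, which untangles DNA for mitosis, had medians of 5.85 FPKM at D1 and 0.711 later, and UBE2C, a mitotic ubiquitin carrier, had 1.76 and 0. Among the other 27 lists, which covered neuron, glial, vascular and hypothalamic genes, the members of the 25 were limited to ALAS2, in the list of red blood cells. Of the 17 tested puberty regulators, 8 were higher and 9 lower later by estimate, and 1, higher later, had an unadjusted p under 0.05 (limma). Of them 0 were called and 0 separated. Over all tested genes 0.0358% were called lower, and over all genes 0.104% were separated with D1 above and 0.0142% with D1 below. With shares this small, 0 among 17 puberty regulators or 34 genes of dividing cells says nothing about them.

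The 25 genes were spread over the genome and were mostly moderately expressed. The 22 with D1 above lay on 17 chromosomes, and 19 of them had a D1 median of at least 5 FPKM. Their annotated spans had a median of 11.9 kb, against 22.8 kb for all tested genes with a span. The 3 genes with D1 below were long, with spans from 95.5 to 613 kb. The median SD of log2(FPKM + 0.1) within D1 was 0.15 over the 24 tested genes and 0.40 over all tested genes, and among the 15 later libraries it was 0.36 and 0.60. A rule that asks for no overlap favours genes with a small spread, so these SDs describe the choice and were not tested.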

How the data were processed

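The authors trimmed the reads of 20 libraries with fastp, aligned them with HISAT2 2.0.5 to the goat genome ARS1.2, assembled transcripts with StringTie 1.3.3b and deposited FPKM values per gene, which are used here as given. Read numbers could not be recovered from these values, so the depth per gene is unknown and the precision rests on the spread between goats, 1 library each. The 25 genes and all gene lists were chosen with earlier results of these data known, and 1 gene was taken out of a list afterwards and is not reported here. By the rule for named genes, those whose higher group had a median of at least 1 FPKM were taken by largest change, level, list and nearness to the edge, and all other separated or called genes were added.

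The filter required 0.1 FPKM or more in 5 or more libraries, and the genes that passed were tested with limma 3.58.1 in R 4.3.3 on log2(FPKM + 0.1), D1 against the 15 later libraries, with a variance trend and Benjamini-Hochberg adjustment over the 16771 genes tested. A call needed an adjusted p under 0.05 and a log2 fold change of 1 or more in size. A second fit with 4 stages as groups gave the contrasts between stages. The fit was tested on simulated data. Single library measures were compared by exact permutation over 15504 assignments. Gene names and positions came from RefSeq on ARS1.2, which matched 20610 genes, and 461 loci kept their assembly names. Python 3.11.15, pandas 2.3.3, numpy 2.4.6, scipy 1.17.1 and matplotlib 3.10.9 were used for the rest.

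Alternatives were other pseudocounts, filters, scalings, designs and variance models, a replicate block, a covariate for the mapping rate, the adjusted p alone, and leaving out libraries.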

Additional observations from a re-analysis of the deposited data

Results flagged for a closer look

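Within single stages of 5 goats, 12 of 136 combinations of a named gene and a stage had a library far from the other 4 by Dixon's ratio. For normally distributed values chance alone gives about 1 in 20. A library above 0 beside 4 at 0 is always flagged, as for ALAS2 and CD209 below, so the 12 cannot be compared with that rate. LOC102176710 had 58.0 FPKM in D1 replicate 3 against 0.0535 to 10.2 FPKM in the other D1 goats, and TRAM1L1 had 22.5 FPKM in the same library against 14.6 to 16.2 FPKM. M2 replicate 1 was low for TIMM44 (10.2 FPKM, others 14.7 to 16.3 FPKM) and for ATP5G1 (7.47 FPKM, others 24.0 to 28.0 FPKM). M2 replicate 4 had 0.587 FPKM of S100A8 against 0.306 to 0.383 FPKM in its stage, and M4 replicate 3 had 2.28 FPKM of SUOX against 4.92 to 5.66 FPKM.

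ALAS2 was at 0.0645 FPKM in M4 replicate 1 and listed at 0 in the other M4 goats. CD209 was at 0.0324 FPKM in M2 replicate 4 and 0.142 FPKM in M6 replicate 4, and listed at 0 in the other goats of those stages. Among genes outside the 25, M4 replicate 1 had 25.4 FPKM of LOC102176025 against 11.3 to 12.8 FPKM, M4 replicate 5 had 52.6 FPKM of IDH1 against 30.5 to 36.7 FPKM, and M6 replicate 4 had 12.03 FPKM of GIGYF2 against 9.01 to 9.54 FPKM. No cause of these values was tested.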

How the results depend on the processing

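Of 22 genes with D1 above and 3 with D1 below, quantile normalization left 9 and 6 and median-ratio scaling 12 and 6, and part of these were other genes. Leaving out a library in turn gave 22 to 101 genes above and 3 to 27 below, which can only rise by construction. It gave 0 to 10 genes called higher and 1 to 35 called lower, with the most lower calls without D1 replicate 4 (35) and the most higher calls without M4 replicate 1 (10, with 15 lower). Without D1 replicates 1, 2 or 3 there were 1, 1 and 2 lower calls. With all libraries 0 were called higher and 6 lower. A pseudocount of 1 FPKM gave 2 higher and 10 lower, the 4-stage design 10 lower, quantile normalization 3 lower, and library quality weights 100 higher and 125 lower. The mapping rate as a covariate left 0 called, with or without the replicate block, and with both together DRG1 turned from -0.53 to 0.0053 and 8 more of the 24 tested separated genes shrank by over 1.5 times, among them ATP5G1 from -0.76 to -0.08, TRAM1L1 from -0.63 to -0.22, SUOX from -0.44 to -0.21 and BLMH from -0.66 to -0.35. Leaving out M2 replicate 3 and M6 replicate 3 together, an alternative added after the data were seen because KLHDC1 had the highest FPKM there, gave 29 and 8 separated genes, 1 called higher and 8 lower. The cause of these differences was not tested.

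The labels number the goats of each stage 1 to 5, and the replicate block gave 1 gene called higher and 8 lower. Same-numbered goats of different stages did not deviate together, with correlations from -0.25 to 0.43 and a median of -0.01 over 30 pairs, 7 of them over 0.1, so the numbers do not pair the goats.

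Among single genes, 1040 of 1081 values under an alternative kept their direction and side of the threshold, 32 fell short of a call made before, 8 became calls and 1 was reversed. Most of these genes were not called at first, and such a gene counted as kept while it stayed uncalled, however much it shrank. The separation rule had also set the direction of most of them, so the 1040 is no measure of how firm the results are. All 32 lost calls were of the 6 genes called with all libraries. The log2 fold change of ALAS2 ranged from -5.26 to -0.98 and its adjusted p in limma from 6.81e-05 to 0.999.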

Other observations

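Of the cell type and pathway lists in which no gene passed the adjusted p in limma, 7 had a median log2 fold change over 0.25 away from the -0.07 of all tested genes, a limit chosen after the values were seen. Over all tested genes 56.9% were lower later by estimate and 11.2% had an unadjusted p under 0.05. Dividing cells were one of them. Of 20 tested genes of antigen presentation and the interferon response, 19 were higher at the later stages by estimate with a median log2 fold change of 0.29, and 1 (CD74, the invariant chain of class II presentation, 1.12 ± 0.48) had an unadjusted p under 0.05. Of 18 collagen genes, 13 were lower later by estimate with a median of -0.36, and COL3A1, a fibrillar collagen, had medians of 24.1 FPKM at D1 and 4.69 FPKM later. Among 26 tested genes of immature neurons 20 were lower later with a median of -0.44, and VIM, an intermediate filament of progenitors and glia, had -0.97 ± 0.27. Of 19 tested genes of GABA-A receptors, GABA synthesis and chloride transport 17 were lower later with a median of -0.39, and 0 had an unadjusted p under 0.05. Of 20 genes of IGF and thyroid signalling 15 were lower with a median of -0.45, and 4 had an unadjusted p under 0.05, 2 of them lower and 2 higher later. Of 24 mature myelin genes 16 were lower with a median of -0.37, and 0 had an unadjusted p under 0.05. In all these lists the D1 and later values of every gene overlapped.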
